A study of Mus musculus with 8 samples.

Results

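The hippocampus of C57BL/6 mice was profiled in 8 RNA-seq libraries at 8 weeks of age, and these differed 10.3-fold in the transcript of transthyretin (Ttr), the thyroid hormone carrier that choroid plexus epithelium secretes into the cerebrospinal fluid. The 8 libraries were all included and were selected on that transcript alone: the 3 with a Ttr value above 1000000 normalised reads were called choroid plexus rich, and the 5 below it choroid plexus poor. A normalised read is a read count divided by the size factor of its library, with no division by gene length. The rich libraries were WT 1 (1519675 normalised reads), WT 3 (1791307) and Slm2KO 4 (2262370). The poor libraries were WT 2 (219052), Slm2KO 2 (376053), WT 4 (794256), Slm2KO 3 (830006) and Slm2KO 1 (844419). The libraries nearest the threshold were thus WT 1 just inside it and Slm2KO 1 just outside it, and on a log scale 3 of the 5 poor libraries lay closer to WT 1 than to WT 2. The split therefore cuts a graded series of values.

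The study compared gene expression and splicing in hippocampi of wild-type mice (WT) and mice labelled Slm2KO, with 4 libraries of each genotype label. SLM2, the product of Khdrbs3, belongs to the STAR proteins, which bind RNA and steer splicing. The labels give the same strain, age and tissue for all libraries, and do not state the sex, the allele, the deleted part of the gene or whether each library came from its own animal, so p-values measure only the spread between these libraries. Both genotype labels occurred on both sides of the split: 2 WT and 1 Slm2KO library were rich, and 2 WT and 3 Slm2KO libraries were poor.

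The choroid plexus is a folded epithelium on a vascular, fibroblast-containing core that hangs into the brain ventricles and makes cerebrospinal fluid. Its cells pump ions and water from blood to ventricle, carry folate and thyroid hormone, secrete growth factors and seal the blood-cerebrospinal fluid barrier with tight junctions. The plexus of the lateral ventricle lies against the hippocampus, next to the fimbria, and the ventricle wall beside it is lined by multiciliated ependymal cells.

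Recovered depth was 104020058 to 125985224 reads per library, of which 10.7% to 12.7% fell on mitochondrial features. The split does not read these measures directly, but depth bears on it through the size factor that divides each Ttr count. Depth and mitochondrial share overlapped in range between its sides. Depth averaged 110333000 reads in the rich and 119861000 in the poor libraries (two-sided exact permutation test, p = 0.214, 0.571 after Benjamini-Hochberg adjustment over 4 measures). The mitochondrial share averaged 12.03% ± 0.644 (SD, n = 3) against 11.74% ± 0.675 (SD, n = 5; exact permutation p = 0.607), and the smallest p this design allows is 0.0357. Reads of Y-linked genes were present in WT 4, Slm2KO 3 and Slm2KO 4 and at or near 0 in the other 5, that is in 1 of 3 rich and 2 of 5 poor libraries.

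Rich and poor libraries were compared with limma on log2(value + 1), with genotype as a covariate, over the 25667 features with a mean of at least 10. A feature counts as called when its Benjamini-Hochberg adjusted p is under 0.05. Because the split was itself read from the expression values, called counts and log2 differences between its sides are given as a description, and no test is read from them. In that sense 543 features were called higher in the rich libraries (2.12% of those tested) and 263 lower (1.02%), together 3.14%. The called higher features had a median log2 difference of 0.83 and 209 of them were at least 2-fold higher. The called lower ones had a median of -0.28 and 5 were at least 2-fold lower. Over all tested features the median difference was -0.01, and for 80.4% of them the 95% interval of the difference lay within 2-fold in either direction.

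The named markers of choroid plexus epithelium went with Ttr across the split. They were chosen with earlier results of these data known, so their values describe the split and are no test of its label. Folr1, the folate receptor of the epithelium, had 6149, 6779 and 8132 normalised reads in WT 1, WT 3 and Slm2KO 4, against 1045, 1524, 3015, 2827 and 3262 in WT 2, Slm2KO 2, WT 4, Slm2KO 3 and Slm2KO 1. Kl, which encodes klotho, the co-receptor of an endocrine fibroblast growth factor, had 8225, 8119 and 10993 in the rich libraries and 1824, 2319, 4157, 3941 and 4262 in the poor ones, in the same order. Aqp1, the apical water channel, had 8540, 7407 and 8762 against 1124, 2059, 3626, 3613 and 4636. Each of these markers was thus lowest in WT 2, next lowest in Slm2KO 2, intermediate in WT 4, Slm2KO 3 and Slm2KO 1 and high in the rich libraries, with no overlap between the sides. The rich mean was 3.01 times the poor mean for Folr1, 2.76 times for Kl and 2.74 times for Aqp1, beside 3.03 times for Ttr, which defined the split. In bulk tissue, more cells of a type and more RNA per cell cannot be told apart.

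**Figure D1:**
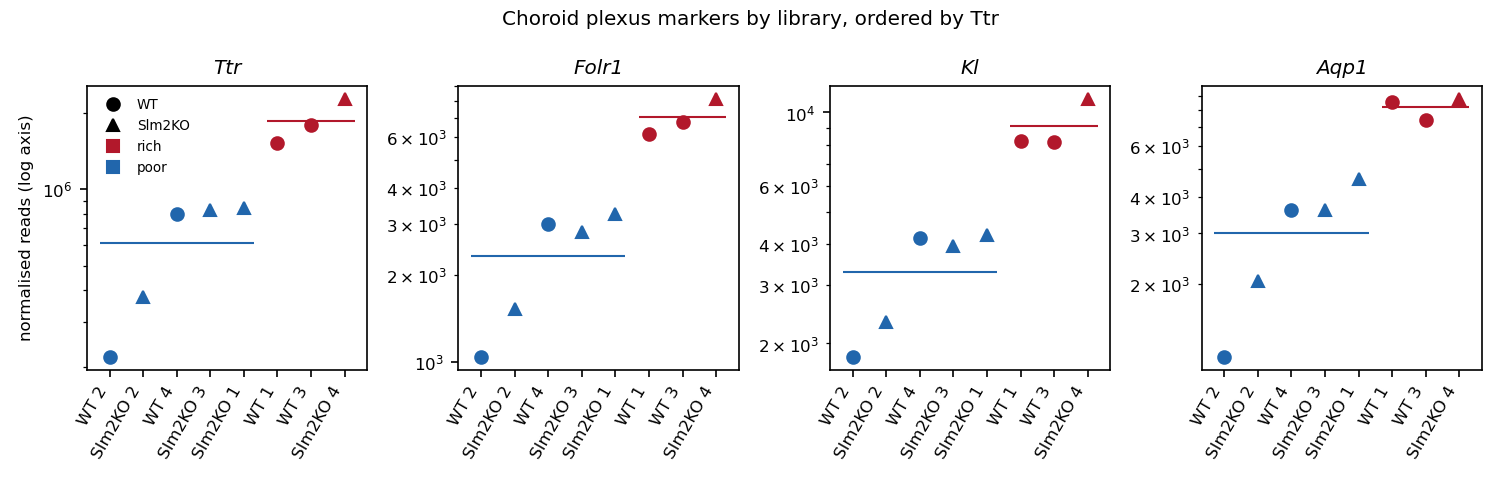
Normalised reads (log axis) of Ttr, Folr1, Kl and Aqp1 in each of the 8 libraries, ordered by Ttr from left to right; circles are WT, triangles Slm2KO, red rich and blue poor, and horizontal lines are the means of each side. The 3 markers that did not define the split are lowest in WT 2 and Slm2KO 2 and have no overlap between sides: Folr1 lies between 1045 and 3262 in poor and between 6149 and 8132 in rich libraries.

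The wider choroid plexus programme was described with 5 lists holding 57 tested genes. All 57 had a positive rich minus poor difference, with a median of 1.58 on the log2 scale, and in 54 the sides did not overlap, against 7.09% of all tested features that were higher without overlap. Of the 57, 47 were called higher (2.12% of all features were) and none lower. Ttr is 1 of the 57 and its difference was fixed by the rule; of the other 56, all were higher, 53 did not overlap and 46 were called, with a median of 1.57. The lists hold well-known genes of a tissue that the split was built to follow, so these counts describe what the split separates and are no test of it. Leaving out any 1 library left all 57 differences positive, with the median between 1.27 (without WT 2) and 1.83 (without WT 4). Within WT alone the median was 1.52 with all 57 higher, and within the libraries labelled Slm2KO alone it was 1.48 with 56 higher.

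Of 11 secreted proteins and carriers 10 were called higher. Enpp2, the secreted lysophospholipase autotaxin, had 495952, 586198 and 751397 normalised reads in WT 1, WT 3 and Slm2KO 4, and 110907, 128367, 269328, 266685 and 298677 in WT 2, Slm2KO 2, WT 4, Slm2KO 3 and Slm2KO 1. It supplied 58.7% to 68.1% of the reads of the 56 listed genes other than Ttr, a share of reads and not of transcripts. The sum of those 56 ran from 188862 in WT 2 to 1103190 in Slm2KO 4. Igf2, a growth factor delivered into the cerebrospinal fluid, had 6319, 5592 and 5777 in the rich and 1556, 1752, 2765, 2377 and 2920 in the poor libraries. Unlike the epithelial markers above, it was highest in WT 1 and not in Slm2KO 4. Sostdc1, a secreted BMP and Wnt antagonist, differed by 1.70 ± 0.24 (log2 difference ± SE) and F5, coagulation factor V, by 1.89 ± 0.35. The exception was Cp (ceruloplasmin, a ferroxidase that astrocytes also make), with 3370, 1819 and 1578 in the rich and 1735, 1348, 1604, 1493 and 2346 in the poor libraries, which overlap.

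Of 19 transporters, channels and pumps tested, 16 were called higher, with a list median of 1.74. Kcnj13, the inwardly rectifying channel Kir7.1, had 9397, 10066 and 13234 normalised reads in WT 1, WT 3 and Slm2KO 4, and 1604, 2263, 4815, 5412 and 5436 in WT 2, Slm2KO 2, WT 4, Slm2KO 3 and Slm2KO 1. Kcne2, a potassium channel beta subunit, averaged 7808 ± 1330 (SD, n = 3) against 2589 ± 937 (SD, n = 5), and Slc4a5, a sodium bicarbonate cotransporter, 1514 ± 227 against 508 ± 246. Trpm3, a cation channel that neurons also express, had a smaller ratio of means, 2.09. Slc46a1, the proton-coupled folate transporter, overlapped between the sides with a difference of 0.28 ± 0.11.

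Trpm3 hosts Mir204, the gene of miR-204, a microRNA of choroid plexus and retinal pigment epithelium. The Mir204 feature was among the 15 named features with the largest differences, which is why the mature sequences are shown. They are RefSeq sequences on GRCm38.p6, from the plus strand at chr19:22750610-22750631 and chr19:22750649-22750669, and capitals mark the seed, bases 2 to 8.
mmu-miR-204-5p: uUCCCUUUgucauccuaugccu
mmu-miR-204-3p: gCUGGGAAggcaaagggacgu
The feature had 1217, 1497 and 2198 normalised reads in the rich libraries and 249, 332, 551, 516 and 634 in the poor ones. It spans 2932 bases at chr19:22750605-22753536 (mm10), inside Trpm3 and on its strand, whereas the hairpin is 68 bases long. Its reads therefore come from longer RNA of that stretch, cannot be separated from reads of Trpm3, and are no measure of the mature microRNA.

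Among receptors and enzymes, 9 of 10 were called higher, with a median of 1.59. Prlr, the prolactin receptor, had 2090, 3005 and 2275 normalised reads in WT 1, WT 3 and Slm2KO 4 and 482, 656, 1017, 931 and 1330 in the poor libraries. Ace, the angiotensin-converting enzyme, averaged 9354 ± 958 (SD, n = 3) against 3508 ± 1705 (SD, n = 5), and Lepr, the leptin receptor, 506 ± 61.2 against 216 ± 45.2. Htr2c, the serotonin receptor 2C, is also made by neurons and had a ratio of means of only 1.72. Lrp2, the endocytic receptor megalin, was the exception, with 703, 836 and 936 in rich and 738, 605, 717, 662 and 729 in poor libraries.

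Junction and epithelial genes followed. The tight junction proteins claudin 1 and claudin 2 stood at 5671 ± 1708 against 1958 ± 896 normalised reads (Cldn1) and at 9662 ± 2417 against 3680 ± 1690 (Cldn2; SD, n = 3 and 5). For Cldn2 the lowest library, WT 2, had 1099 and the highest, Slm2KO 4, 12275. Col8a1, a short-chain collagen, had 7569, 9435 and 10079 in the rich and 1277, 1848, 3458, 3875 and 4236 in the poor libraries. All 13 genes of this list were higher in every rich than in every poor library, although only 8 were called, and Krt8 (keratin 8, difference 1.44 ± 0.36) was one of the 5 that were not.

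All 4 listed transcription factors of the epithelium were called higher. Otx2, a homeobox factor that choroid plexus requires for its formation and upkeep, had 4517, 4807 and 7101 normalised reads in WT 1, WT 3 and Slm2KO 4, and 823, 1087, 2525, 2878 and 2542 in WT 2, Slm2KO 2, WT 4, Slm2KO 3 and Slm2KO 1. Lmx1a, a roof plate LIM homeobox factor, averaged 890 ± 227 (SD, n = 3) against 329 ± 105 (SD, n = 5), and Msx1, another roof plate homeobox factor, 3606 ± 630 against 1761 ± 407. Gmnc, a regulator of multiciliated cell fate, had the smallest ratio of the 4, 1.75.

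OTX factors bind TAATCC, so the promoters of the listed genes were searched for these letters on either strand. RefSeq promoters were found for 44 of the 57 genes, 64 promoters in all, and the 250 bases before the start were read. TAATCC or its reverse complement GGATTA was in 4 of 64 (6.25%), those of Abca4, Ace, Otx2 and Pla2g5, and in 2054 of 32851 promoters of all genes (6.25%). Of the 4, 2 are shown, for Otx2 itself and for Abca4, a retinoid flippase whose difference was 1.79 on the log2 scale; capitals mark the match. The windows are chr14:48665110-48665359 on the minus strand and chr3:122044210-122044459 on the plus strand of GRCm38.p6.
Otx2: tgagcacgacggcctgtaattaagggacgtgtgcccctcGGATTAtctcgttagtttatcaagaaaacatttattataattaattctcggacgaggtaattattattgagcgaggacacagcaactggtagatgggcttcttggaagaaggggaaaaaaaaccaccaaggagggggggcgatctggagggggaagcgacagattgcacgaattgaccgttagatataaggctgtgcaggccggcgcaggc
Abca4: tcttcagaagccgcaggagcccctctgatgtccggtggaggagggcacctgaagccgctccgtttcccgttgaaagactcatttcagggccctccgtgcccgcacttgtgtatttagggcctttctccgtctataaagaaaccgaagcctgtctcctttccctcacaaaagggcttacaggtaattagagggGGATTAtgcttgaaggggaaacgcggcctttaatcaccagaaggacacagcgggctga
A forkhead motif, TGTTTAC or GTAAACA, was in 1 of the 64 (1.56%), that of Prlr, and in 1040 of all promoters (3.17%). A match is a run of letters in this window and no measure of binding.

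How closely the other genes tracked Ttr was read from the correlation of log2(value + 1) over the 8 libraries, which share their size factors, and is a description. Of the 56 listed choroid plexus genes, 52 had r of at least 0.9, beside 2.72% of all tested features, and their median r was 0.980 (all features -0.02). The 10 features most like Ttr were sought among those with a symbol and a rich minus poor log2 difference of at least 1. They were Rhod (0.998), Kcnj13, Slc2a12, Steap1 (0.997), Wdr72, Prr32, Baiap2l1, Tmem72 (0.996), Folr1 and Wfdc2 (0.995). Because they were picked by correlation with Ttr, a steady amount per Ttr read is partly built in. Steap1 had between 0.800 and 0.949 normalised reads per 1000 of Ttr in all 8 libraries, and Tmem72 between 2.92 and 3.59. By contrast Sostdc1 ran from 3.41 to 7.27 per 1000 Ttr reads, and Trpm3 from 11.6 to 42.2. The ratio of rich to poor means ran from 1.20 to 3.13 over the 56 genes with a median of 2.59, 43 were at least 2-fold, and 4 exceeded the ratio of Ttr. Slm2KO 4 was the highest library for 45 of the 56, WT 1 for 9 and WT 3 for 2, while the lowest was WT 2 for 44 and Slm2KO 2 for 12.

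The 15 largest positive differences among called, non-overlapping features with a symbol held few textbook plexus genes. Ttr, F5 and Mir204 were there, beside low-level features such as Ceacam16, a secreted adhesion molecule, at 9.01, 31.4 and 34.5 normalised reads in WT 1, WT 3 and Slm2KO 4. In the poor libraries Ceacam16 had 0.904 in WT 2, 0 in Slm2KO 2 and WT 4, 4.15 in Slm2KO 3 and 3.70 in Slm2KO 1. Its poor mean of 1.75 is under the minimum of 10, so it entered the fit only through the rich libraries, as did 3 more of the 15 (4930563D23Rik, Gm10685 and 1700066O22Rik). Mcoln3, an endolysosomal cation channel, had 48.1, 154 and 95.9 in the rich libraries against 30.7, 4.21, 9.57, 12.4 and 12.9. It did not follow the order of Ttr, since WT 2, the poorest library, was the highest of the poor ones. Tcf21, a basic helix-loop-helix factor of mesenchymal cells, had 94.1, 72.9 and 84.0 against 3.62, 18.9, 32.5, 16.6 and 25.9. The others were Smim22, Tns4, Wdr86, the olfactory receptor genes Olfr574 and Olfr1507, and the RIKEN and predicted genes 4930563D23Rik, Gm10685, 4930511M06Rik and 1700066O22Rik, with differences of 1.89 to 2.65. Ceacam16, Tcf21, 4930511M06Rik, F5 and Ttr overlap a feature on the other strand, which the library kit does not separate.

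Genes of motile cilia were higher in the rich libraries by less. Of 35 tested, 32 had a positive difference, 12 were called higher (2.12% of all features were) and none lower, 18 were higher without overlap (7.09% of all features), and the median was 0.57. The choroid plexus epithelium carries cilia of its own, so these genes do not belong to ependyma alone. Foxj1, the master regulator of motile cilia, had 722, 914 and 809 normalised reads in WT 1, WT 3 and Slm2KO 4, and 417, 441, 565, 557 and 580 in the poor libraries. Dnah11, an outer arm dynein heavy chain, had 1788, 1795 and 2176 against 947, 852, 1035, 1101 and 1239. Ccdc153, a cilium gene typical of ependyma, had 1388, 2429 and 2549 against 1460, 1162, 1547, 1804 and 1738, so that WT 1 fell among the poor libraries. Tmem212 showed the same: WT 1 had 808, within the poor range of 566 to 984, and WT 3 and Slm2KO 4 had 1440 and 1290. The summed cilia list was 37420 in WT 1, 47055 in WT 3 and 49712 in Slm2KO 4, against 27726 to 34877 in the poor libraries. Its median difference was 0.43 to 0.72 with any 1 library left out.

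**Figure D2:**
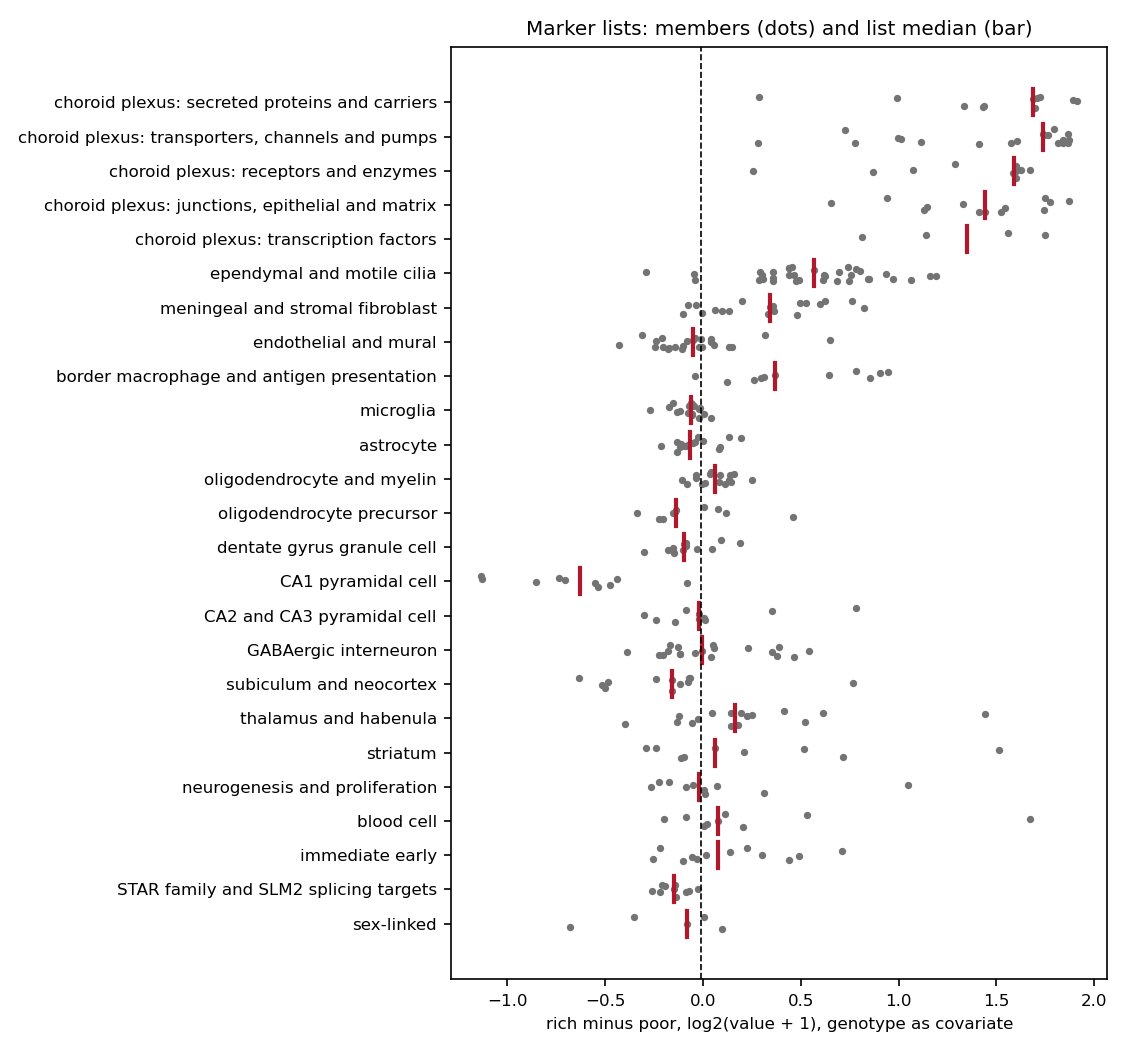
Rich minus poor difference on the log2(value + 1) scale for each gene list: dots are tested members, bars list medians and the dashed line the median of all tested features (-0.01). Choroid plexus lists lie far to the right (median 1.58 over all 57 genes), motile cilia next (0.57), CA1 pyramidal markers to the left (-0.63), and most other brain lists near 0.

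Stromal and immune genes of the brain borders behaved differently. The list of meningeal and stromal fibroblasts had 15 of 19 positive differences and a median of 0.34, with 1 gene called, Lum, a leucine-rich matrix proteoglycan. Lum had 1204, 1046 and 1132 normalised reads in WT 1, WT 3 and Slm2KO 4 against 625, 495, 603, 746 and 812. For most of the list the high values belonged to WT 1: Ogn (osteoglycin) had 2370 there, but 1127 in WT 3 and 1193 in Slm2KO 4, inside the poor range of 493 to 1216. Col1a2, a chain of type I collagen, had 3355, 2212 and 1528 against 1630, 943, 1204, 1441 and 1814. Without WT 1 the list median was -0.02. The summed list was 49094 in WT 1, 28385 in WT 3 and 24070 in Slm2KO 4, against 17752 to 33100 in the poor libraries.

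Markers of border macrophages and antigen presentation followed WT 1 as well. Of 11 genes 10 had a positive difference, none was called, and the median was 0.37 (0.20 without WT 1). H2-Aa, an MHC class II chain, had 771 normalised reads in WT 1, 246 in WT 3 and 223 in Slm2KO 4, against 289, 166, 86.1, 125 and 306 in the poor libraries. Its partner chaperone Cd74 had 688, 277 and 229 against 246, 128, 144, 137 and 315. The stromal and antigen presentation genes given here were thus highest in WT 1. In all of them except Lum, WT 3 or Slm2KO 4 or both lay within the poor range.

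The endothelial and mural list was close to 0, with 8 of 25 differences positive and a median of -0.05. That median was -0.24 without WT 1 and 0.11 without Slm2KO 4. The summed list was 87642 in WT 1, 77290 in WT 3 and 72052 in Slm2KO 4, against 69206 to 76546 in the poor libraries. Its only called gene was Slco1c1, a thyroid hormone transporter that choroid plexus epithelium expresses too, at 17896, 17786 and 19956 normalised reads in the rich and 10072, 12297, 12930, 12073 and 13767 in the poor libraries. Cldn5, the claudin of brain endothelium, had 2906, 1826 and 1407 against 3291, 2940, 2177, 1834 and 2259, and overlapped. Plvap, the diaphragm protein of the fenestrated vessels found in the plexus, averaged 831 ± 134 (SD, n = 3) against 790 ± 54.6 (SD, n = 5).

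**Figure D3:**
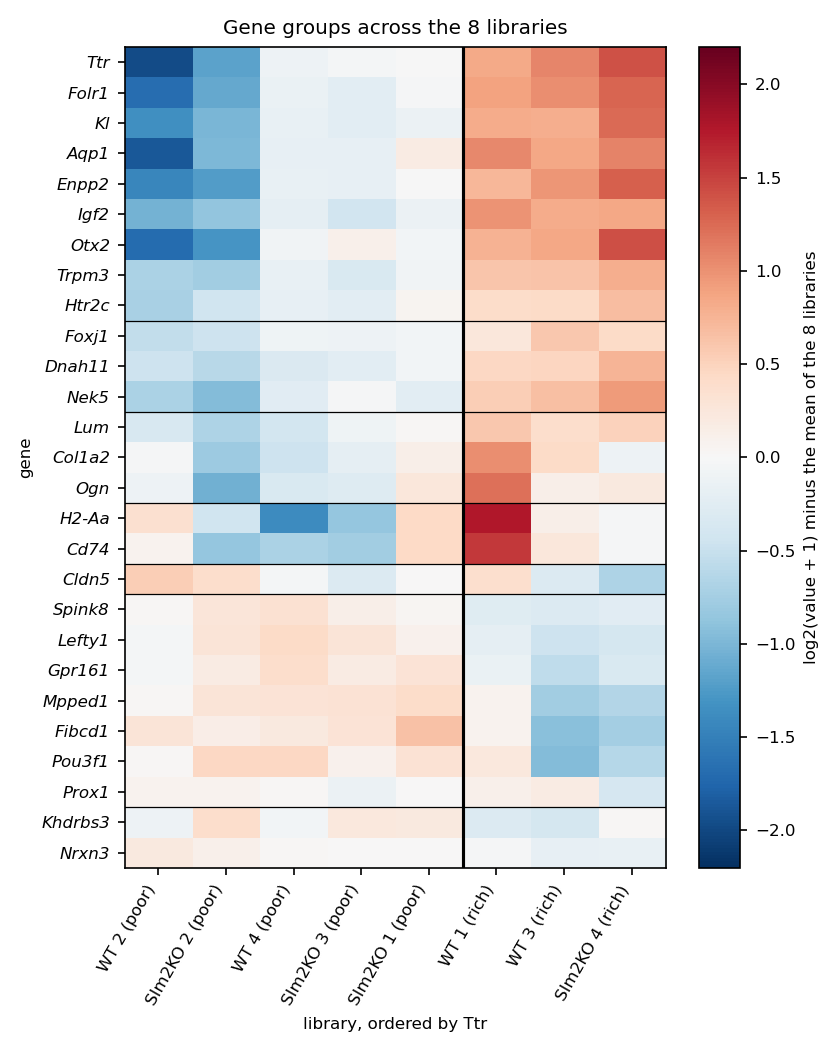
Log2 difference of each library from the mean of the 8 for named members of the lists, libraries ordered by Ttr. Choroid plexus genes grade from WT 2 to Slm2KO 4, stromal and MHC class II genes stand out in WT 1, and several CA1 genes are low in WT 3 and Slm2KO 4 but not in WT 1.

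Lists of other hippocampal cells showed small differences. The median was -0.06 for microglia (18 genes), -0.06 for astrocytes (16), 0.06 for oligodendrocytes (16), -0.14 for their precursors (10), -0.10 for dentate granule cells (13), -0.02 for CA2 and CA3 pyramidal cells (10), 0.00 for interneurons (19) and -0.02 for neurogenesis (10), with none called in any of these except Map3k15. That kinase gene, a CA2 marker, was called higher at 1368 ± 122 (SD, n = 3) against 814 ± 159 normalised reads (SD, n = 5). Blood cell genes had a median of 0.08 and immediate early genes 0.08. Tissue next to the hippocampus was covered by lists for subiculum and neocortex (-0.16, 1 of 12 positive), thalamus and habenula (0.16, 11 of 16 positive) and striatum (0.06, 5 of 9 positive).

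Single members of those neighbour lists stood apart from their medians. Chrnb4, a nicotinic receptor subunit of the habenula, had 281, 282 and 212 normalised reads in WT 1, WT 3 and Slm2KO 4, against 46.1, 46.3, 138, 150 and 185. Tac2, a neurokinin precursor of the same list, went the other way, with 208, 219 and 203 against 268, 255, 269, 334 and 271. Neither gene overlapped between the sides, in opposite directions, and neither was called. In the striatum list 1 gene was called in each direction. Ppp1r1b, the phosphatase inhibitor DARPP-32, had 12734, 13865 and 15194 against 6611, 6997, 10157, 10079 and 10566, and its correlation with log2 Ttr was 0.990. Pde10a, a striatal phosphodiesterase, was the one called lower, with 4483, 4435 and 3533 against 5017, 4926, 5282, 4445 and 4638, although its sides overlapped.

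CA1 pyramidal markers were the list with the largest difference in the other direction. All 10 were lower in the rich libraries, with a median of -0.63; 3 were called lower (1.02% of all features were) and 4 did not overlap, against 6.44% of features lower without overlap. Spink8, a protease inhibitor gene of CA1 cells, had 2639, 2592 and 2683 normalised reads in WT 1, WT 3 and Slm2KO 4 and 3228, 3843, 4036, 3501 and 3302 in the poor libraries. Lefty1, a secreted Nodal antagonist, had 1202, 1012 and 1061 against 1335, 1686, 1853, 1675 and 1484. Gpr161, a ciliary receptor that restrains Hedgehog signalling, had 1820, 1365 and 1596 against 1954, 2284, 2614, 2282 and 2463. In these 3 called genes every rich library lay below every poor one. They did not grade with Ttr beyond that: WT 2, with the least Ttr, was the lowest poor library for each.

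A further pattern split the rich libraries. Nov, a secreted CCN family protein of dorsal CA1, had 800 normalised reads in WT 3 and 1031 in Slm2KO 4, but 3192 in WT 1, which lies inside the poor range of 2551 to 3857. Fibcd1, an acetyl-binding receptor used as a CA1 marker, had 1559 and 1761 in WT 3 and Slm2KO 4, 3130 in WT 1 and 3257 to 4622 in the poor libraries. Pou3f1 showed the same order, with 1820, 2287 and 4113 against 3587 to 4852. The summed CA1 list was 18247 in WT 3 and 20724 in Slm2KO 4, while WT 1, at 30082, stood just below the poor range of 30737 to 36274. Without WT 1 the CA1 median was -0.79, and it was -0.50 without WT 3. Plexus and cilia markers differed on the same split of libraries, and their part in this result was not tested. The deposited library names carry numbers in a lower and a higher series. WT 1 belongs to the lower series, WT 3 and Slm2KO 4 to the higher, and both series also hold poor libraries. The labels do not say what the numbers mark, and their part in this pattern was not tested. With the series as a covariate 1041 features were called between rich and poor libraries, against 806 without it.

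**Figure D4:**
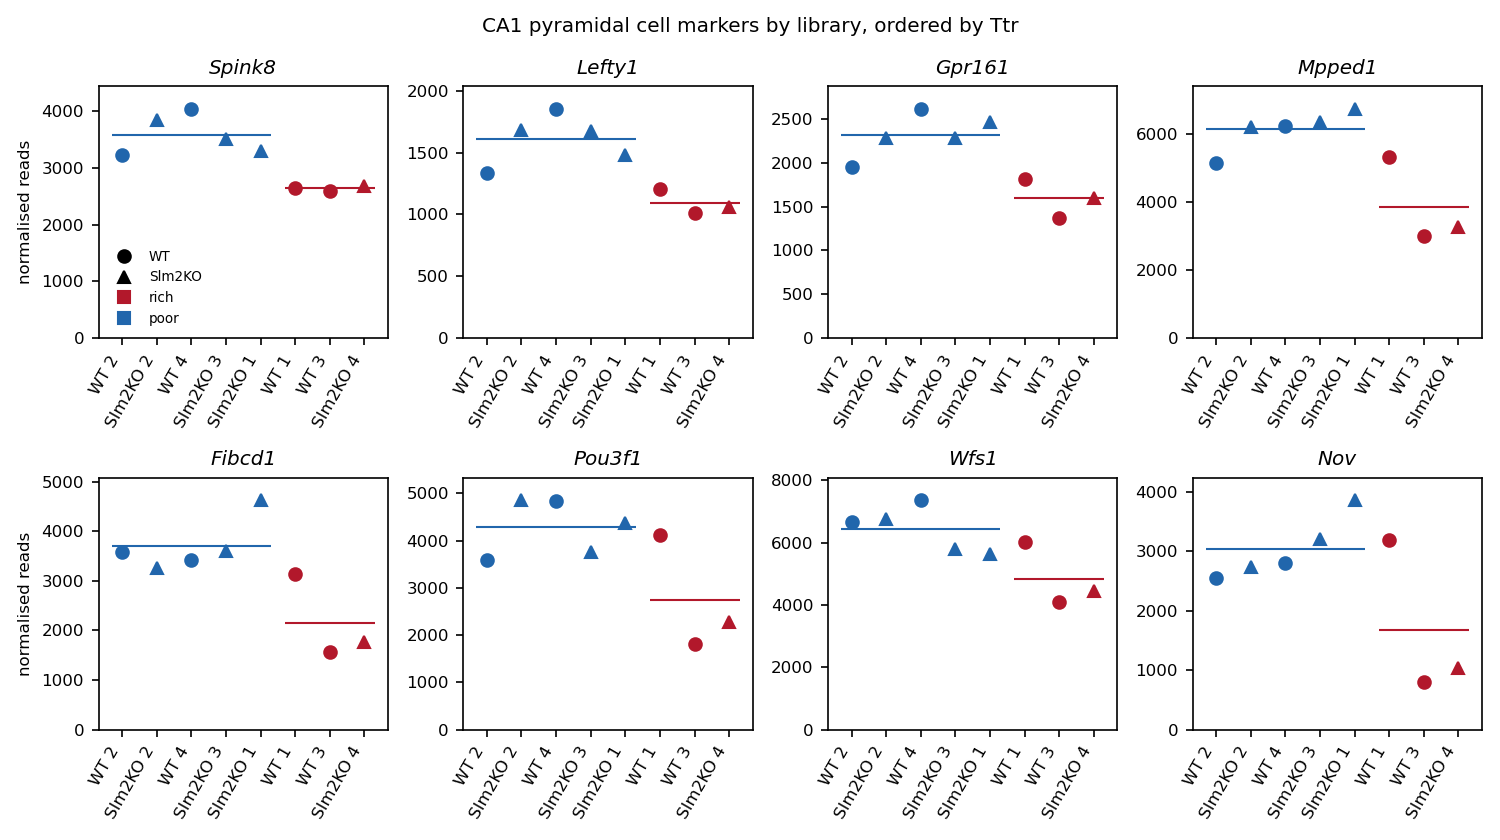
Normalised reads (linear axis from 0) of 8 CA1 pyramidal markers in each library, ordered by Ttr; circles are WT, triangles Slm2KO, red rich and blue poor, lines the means. Spink8, Lefty1 and Gpr161 are low in all 3 rich libraries, whereas Mpped1, Pou3f1, Wfs1 and Nov are low in WT 3 and Slm2KO 4 and in WT 1 within the poor range.

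Among called, non-overlapping features with a symbol, the 15 largest negative differences ran from -0.49 to -0.98, against 1.89 to 3.67 for the 15 positive ones. Ackr2, a scavenging chemokine receptor, led them with 148, 87.1 and 73.3 normalised reads in WT 1, WT 3 and Slm2KO 4 against 161, 189, 227, 168 and 184. Ccna1 (cyclin A1) had 115, 81.0 and 78.6 in the rich libraries and a narrow 158 to 169 in the poor ones. Grem1, a BMP antagonist, had 437, 296 and 279 against 485, 679, 659, 491 and 471. Lefty1 and Gpr161 recurred here, with Nr2f1, an orphan nuclear receptor of cortical patterning, Sstr4, a somatostatin receptor, Doc2b, a calcium sensor of vesicle release, and Fkbp1b, a ryanodine receptor partner. The rest were Alox12b, Fam212a, Gm17753, Gm2115, 3110035E14Rik and the joint feature Foxp1 // Eif4e3. WT 1 had the highest of the 3 rich values for Ackr2, Ccna1, Grem1, Lefty1, Gpr161, Nr2f1, Doc2b, Fkbp1b and Sstr4. For these genes WT 1 was thus the rich library closest to the poor range.

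How many features were called depended heavily on single libraries. With WT 2, WT 3 or Slm2KO 4 left out none was called, without Slm2KO 3 there were 64 and without Slm2KO 1 535, and without WT 1 there were 1548, more lower (836) than higher (712). The direction and size of the plexus differences were less sensitive, as the leave-one-out medians above show. With log2 Ttr as a continuous covariate 1293 features were called, 1020 with a positive and 273 with a negative slope. On the recovered reads DESeq2 called 2224 and edgeR's quasi-likelihood test 609 higher and 128 lower. Within WT alone (2 rich, 2 poor) 1 feature was called by limma and within Slm2KO (1 rich, 3 poor) 2.

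Genotype did not enter the choice of libraries, and Ttr overlapped widely between the genotype labels, from 219052 to 1791307 in WT and from 376053 to 2262370 in Slm2KO. The Slm2KO minus WT difference of log2 Ttr was 0.08 (two-sided exact permutation test, p = 0.943). The log2 sum of the 56 other plexus genes differed by -0.05 (exact permutation, p = 1.00), and the smallest p for 4 against 4 is 0.0286. Both differences changed sign when single libraries were left out, WT 2 or Slm2KO 4 for Ttr.

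With the split as a covariate, the genotype comparison gave 1 called feature of 25667 (0.0039%), Khdrbs2, beside 1833 features at an unadjusted p under 0.05. Khdrbs2 encodes SLM1, the closest paralogue of SLM2. It had 1208, 1078, 1126 and 972 normalised reads in WT 2, WT 4, WT 1 and WT 3, and 2667, 2441, 2730 and 2088 in Slm2KO 2, Slm2KO 3, Slm2KO 1 and Slm2KO 4. The difference was 1.12 ± 0.08 (log2 ± SE; limma, Benjamini-Hochberg adjusted p = 0.00169), and Khdrbs2 was higher in 4 of 4 Slm2KO libraries than in any WT library, as were 1.33% of all features (1.17% were lower without overlap). It was 1.19 within the poor libraries alone (adjusted p = 0.0123) and 1.00 within the rich ones (adjusted p = 0.283, limma with 1 Slm2KO library). Among Slm2KO libraries Khdrbs2 was lowest in the rich one.

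Khdrbs3, the gene named by the knockout label, had no lower level in any library labelled Slm2KO than in any WT library. It had 23542, 24544, 20662 and 19458 normalised reads in WT 2, WT 4, WT 1 and WT 3, and 33366, 30022, 29676 and 25932 in Slm2KO 2, Slm2KO 3, Slm2KO 1 and Slm2KO 4. The genotype difference was 0.37 ± 0.05 (limma adjusted p = 0.172; DESeq2 adjusted p = 3.31e-06). A value over the whole gene does not show whether part of it is deleted, so the labels could not be checked by it, and genotype directions here are those of the labels. On the split, Khdrbs3 was lower in the rich than in the poor libraries of each label, and its fitted rich minus poor difference was -0.26 ± 0.05. Khdrbs1, which encodes Sam68, had 10674, 10562, 10874 and 10630 in the WT and 14399, 13920, 14460 and 12526 in the Slm2KO libraries in the same order, a difference of 0.35 ± 0.05 (limma adjusted p = 0.193; DESeq2 adjusted p = 4.63e-06). Of the 10 genes of the STAR family and SLM2 target list, 10 had negative rich minus poor differences, as had 13362 of all 25667 tested features. The list median was -0.15, and Khdrbs3 was the one called, beside 1.02% of all features called lower. Other brain lists leaned the same way, such as microglia (16 of 18 lower) and subiculum and neocortex (11 of 12), whereas oligodendrocytes did not (5 of 16). Neurexin 3 (Nrxn3), a presynaptic adhesion molecule spliced by SLM2, had 14320, 12870 and 12994 in the rich and 17005, 15734, 14906, 14672 and 14713 in the poor libraries.

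**Figure D5:**
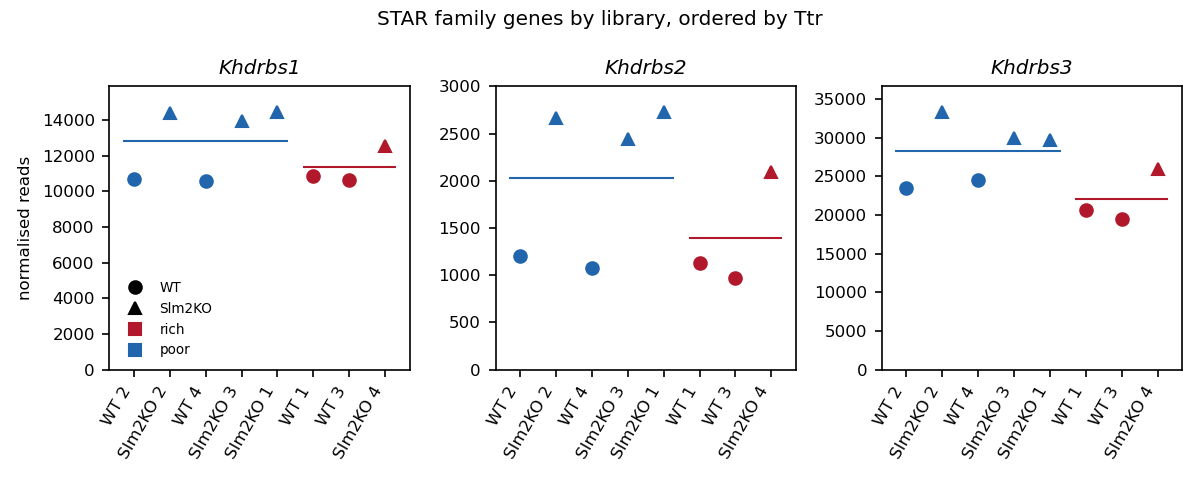
Normalised reads (linear axis from 0) of Khdrbs1, Khdrbs2 and Khdrbs3 in each library, ordered by Ttr; circles are WT, triangles Slm2KO, red rich and blue poor, lines the means of each side. Slm2KO libraries lie above WT libraries for each gene, and Slm2KO 4, the rich one, is the lowest of the Slm2KO libraries, at 2088 for Khdrbs2 against 2441 to 2730.

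Whether the split acted differently in the genotypes was asked with an interaction term. No feature was called by limma (0.0% of those tested; smallest adjusted p 0.120), with 1350 at an unadjusted p under 0.05. On the recovered reads edgeR called 0 and DESeq2 7. The median standard error of that term over features was 0.24 on the log2 scale, against 0.12 for the split itself. A single library, Slm2KO 4, is the rich Slm2KO side of the term. As the smallest of its sides, it adds the most to that error by design.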

How the data were processed

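The 8 hippocampal libraries were analysed as deposited (TruSeq RNA kit, which does not mark strand, so overlapping and antisense features cannot be told apart). The deposited signal values are gene-level read counts that the authors scaled with DESeq, per the submitters' processing notes, which list FastQC, Picard and SAMtools too, with no version. Aligner and counting program: not given in the sources used here. Coordinates follow the mm10 of the file header, although hg19 is listed in the notes. The table holds 56575 features, 24338 with a symbol; for a repeated symbol the row with the highest mean was used. Features without a symbol took 15.4% to 18.4% of the reads.

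Within a library the values were whole multiples of 1 step, and 100% came out as whole reads within 0.001 of a read; for WT 1 (size factor 0.999) the step could not be told from rounding by itself. Depth was 104020058 to 125985224 reads. The recovered reads served edgeR 4.0.16 and DESeq2 1.42.0.

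The main test was limma 3.58.1 (R 4.3.3, trended prior) on log2(value + 1) for features with a mean of at least 10, with the Ttr split and genotype as terms and Benjamini-Hochberg adjustment over all 25667 features. The added 1 shrinks differences of low features. Fitted differences are between means of logarithms and can exceed the log of the ratio of means. The fits were tested on simulated data. Exact permutation tests were two-sided. Of 351 entries in 25 gene lists, 345 matched and 342 were tested.

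Named genes were Ttr, Folr1, Kl and Aqp1, the 15 features with a symbol of largest difference in each direction among called, non-overlapping ones, up to 4 members per list (8 for plexus lists) by smallest p, the 10 most like Ttr, and Khdrbs1, Khdrbs2 and Khdrbs3. The 10 most like Ttr were sought among features with a symbol and a rich minus poor log2 difference of at least 1. For 2 further genes no values are reported here. Other members serve as examples, picked with their values in view. The split, the members and the lists were chosen with earlier results of these data known. Alternatives were other pseudocounts, filters, scalings and tools, covariates, a replicate block and each library left out. Whether equal replicate numbers pair libraries was checked by the correlation of their deviations, which had no common direction and does not settle it. Promoter and microRNA sequences are from RefSeq, GRCm38.p6. Python 3.11.15 and matplotlib 3.10.9 were used for tables and figures.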

Additional observations from a re-analysis of the deposited data

Results flagged for a closer look

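Single libraries far from the rest of their group were looked for in 156 features and 468 groups (WT, Slm2KO, poor). Many features were chosen by their values and the groups share libraries, so no chance rate is set beside the result. Of these groups, 26 (5.56%) met the threshold. Slm2KO 4, the rich library among the Slm2KO ones, accounted for 12; many of the features were named for their rich minus poor difference, so that its standing apart in its genotype follows from the choice of features. It was far above the other 3 for Ceacam16 (34.5 normalised reads, next 4.15), Mcoln3 (95.9, next 12.9), Tcf21 (84.0, next 25.9), 4930511M06Rik (88.3), 1700066O22Rik (24.8), Mir204 (2198, next 634) and Olfr1507 (295). It was far below them for Ccna1 (78.6, next 158), Gm17753 (172), Fkbp1b (2586, next 4011), Mpped1 (3261, next 6214) and Fezf2 (922, next 1740).

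Slm2KO 2 stood apart in 6 groups. It was the highest poor library for Doc2b (4749), Sstr4 (7539) and Hbb-bs, a beta globin (16221, next 8712), and the lowest for Fgfr3 (9688). For Lcn2, lipocalin 2, its 158 normalised reads, next 47.7, stood apart both among poor and among Slm2KO libraries. C1ql1 in WT 4 (372) and Tac2 in Slm2KO 3 (334) were the other high poor values. Within WT, WT 1 was far above the rest for the activity-induced genes Npas4 (666, next 298) and Btg2 (3906), and WT 3 was far below for the microglial receptor gene Cx3cr1 (3783).

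The remaining values concern Y-linked genes. In WT only WT 4 had their reads (Eif2s3y 9093, Ddx3y 4842, Uty 3568). Because WT 4 is poor, and Slm2KO 4 is rich, the rich minus poor difference was opposite in the genotypes: -7.32 in WT and 8.17 in Slm2KO for Eif2s3y, and -6.87 and 8.33 for Ddx3y on the log2 scale. The interaction term given above covers this contrast between the genotypes, and its Slm2KO rich side is Slm2KO 4 alone.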

How the results depend on the processing

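The alternatives changed how many features were called far more than their direction: no called named gene changed sign under any of them. Against 806 called features between rich and poor libraries, there were 16 without the filter on low values, 432 (372 higher, 60 lower) with quantile normalisation, 2224 (1231 and 993) with DESeq2, 0 in limma without the trend and 1293 with continuous Ttr. Among alternatives chosen after seeing the data there were 1 within WT, 2 within Slm2KO, 1667 (835 and 832) with a term for Y-linked reads and 447 (397 and 50) without the 2 libraries of lowest Ttr. Leaving out 1 library gave 0 to 1548. TMM factors gave 556 higher and 133 lower. The genotype comparison called 1 feature, and 2 with a pseudocount of 10, edgeR or continuous Ttr, 8 without the filter, 23 with DESeq2, 0 without the trend, 3 within poor and 12 within rich libraries (where Y-linked genes differ), and 1 to 2 with a library left out. Khdrbs2 was not called without the filter (adjusted p = 0.0606) or without the trend (0.170) in limma. For the interaction, none called became 1 with a pseudocount of 10, a mean of at least 50 or no trend, 559 without the filter, 7 with DESeq2, and 0 to 1 with a library left out; without Slm2KO 4 it could not be estimated. The cause was not tested.

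Deviations of libraries with equal replicate numbers had no common direction (correlations 0.124, 0.323, -0.065 and -0.122 for numbers 1 to 4). Of 8 libraries, 3 correlated best with their own number. WT 2 and Slm2KO 2, which correlated at 0.323, also had the lowest Ttr values. These correlations do not settle whether equal numbers mark pairs. With the replicate number as a block, 824 features were called between rich and poor (526 higher, 298 lower) and 2 between genotypes, and the plexus median was 1.05 against 1.58 on the log2 scale.

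The Slm2KO minus WT difference of log2 Ttr was -0.56 without WT 2 and -0.37 without Slm2KO 4, and at most 0.49 (without Slm2KO 2). On linear values it was -2861 normalised reads. For the plexus sum it was 0.18, 0.24 and 0.32 without WT 1, WT 3 and Slm2KO 2, and -0.50 without WT 2. The rich minus poor mitochondrial share was -0.0766 percentage points without Slm2KO 4, and at most 0.546. With 3 against 5 libraries the median standard error was 0.12 on the log2 scale, and low features such as Ceacam16 rest on few reads.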
